A study of Mus musculus with 16 samples.

Results

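The 10 genes described here, Gas5, Snhg1, Snhg3, Snhg6, Snhg8, Snhg11, Snhg12, Snhg14, Snhg17 and Snhg20, are host genes of small nucleolar RNAs (snoRNAs). They were taken by gene name from a table of transcript levels in mouse hippocampus, where they hold 81 of 80137 transcripts and make up 10 of 18287 gene names. The level of a transcript is given as FPKM, fragments scaled by the length of the transcript and by the size of the library, and the level of a gene is the sum over its transcripts. All mice were male C57BL/6 animals, 3 months old, and each of the 16 libraries came from the 2 hippocampi of 1 mouse. Homecage mice (HC) were left in their cages, and control mice (Ctrl) took the escape test of 30 shocks of 0.4 mA after a first day in the box without shocks. The other mice formed the learned helpless group (LH) and the group that did not become helpless (NLH), and all of them received 180 inescapable foot shocks of 0.4 mA on the day before the same test. These shocked mice were sorted into NLH and LH afterwards by clustering and discriminant analysis of their escape failures and latencies, so both groups had the same inescapable shocks and were defined by behavior. Each test shock ended when the mouse escaped, so the shock time of the test could differ between groups. Among all mice it tested, the study reported more escape failures and longer latencies in LH than in NLH and Ctrl. Each group holds 4 mice, dissected 3 h after the test session.

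A snoRNA guides the chemical modification of ribosomal RNA or takes part in its cutting, and most mammalian snoRNAs are released from introns of a longer host transcript. Some hosts encode proteins, often of the ribosome, and others yield a spliced RNA with no known protein. Many of these spliced RNAs are degraded by nonsense-mediated decay, the pathway that removes messages with early stop codons, and several start with a terminal oligopyrimidine tract, a run of C and T that ties the translation of ribosomal protein messages to growth signals. Gas5 was found as a transcript that accumulates when growth stops, and its RNA can bind the glucocorticoid receptor. Snhg14 is the long transcript of the imprinted Prader-Willi and Angelman region, whose far end runs antisense to Ube3a in neurons.

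The libraries held an estimated 20130000 to 38020000 fragments, read from the step between low FPKM values of 1962 loci with 1 transcript and an assumed fragment of 200 bases. With that estimate 72.5% to 82.4% of the low values per library lay within 0.1 of a whole fragment, where chance gives 20% for a depth fixed beforehand. The estimate was fitted to these same values, so their closeness is not a separate check of it. LH mice 3 and 4 stood apart, with 10846 and 15504 transcripts listed at 0 against 4872 to 7352 in the other mice, and LH mouse 4 had the lowest estimate of depth. Values without these mice are given beside the results named as resting on them. The hippocampal neuron markers Neurod6, Prox1, Wfs1, Fibcd1 and Zbtb20 summed to 78.0 to 127.5 FPKM in every mouse, although Wfs1 was near 0 in LH mouse 4. Markers of choroid plexus, tissue that can be carried over in a dissection, summed to 1.59 FPKM in LH mouse 4 and to 84.1 FPKM in the LH mouse with the most. Their part in the values below was not tested. In bulk tissue fewer cells of a type and less RNA per cell cannot be told apart.

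All 81 transcripts matched an annotated transcript of GENCODE vM21 on GRCm38, the build of the files. The loci differ in how many snoRNAs they carry. Gas5 (ENSMUSG00000053332.13) spans chr1:161034422-161038539 with 24 transcripts in the table and 10 annotated snoRNA entries, all in introns of its leading transcript, the one with the highest mean FPKM over all mice. A pair of these entries overlap and both name Snord80. Snhg1 (ENSMUSG00000108414.1, chr19:8723475-8726443) has 15 transcripts and 8 snoRNAs in introns of the leading one. Snhg3 (chr4:132348014-132353686) carries Snora73a and Snora73b, Snhg6 (chr1:9941959-9944118) carries Snord87, and Snhg8 (chr3:123507552-123508404) carries Snora24. Snhg14 (chr7:59307924-59975759) is the largest locus, with 208 snoRNAs over 667836 bases, of which 0 lie in an intron of its leading transcript. Snhg12 (chr4:132308623-132311024) holds 5 entries, 2 of them overlapping entries for Snora16a in the intron of the leading transcript and 3 (Snora44, Snora61 and Snord99) inside its exons. Snhg11 (chr2:158375638-158386145) and Snhg17 (chr2:158353700-158361580) are neighbors on opposite strands, 14057 bases apart, and Snhg20 (chr11:117076008-117078955) carries 1 entry, Gm26083, which the annotation classes as a scaRNA, a related small RNA of Cajal bodies. Snhg11 is the one member classed as protein coding in the table. The sources do not state whether reads were assigned by strand, so where Snhg14 runs antisense to Ube3a their reads cannot be told apart. The assembled locus of Snhg3 also takes in Rcc1, so reads of these genes may not be fully separated.

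The starts of 7 members are shown because the oligopyrimidine tract is the feature that links this family to ribosomal protein genes. RefSeq (GRCm38.p6) gave a window for 9 members, of which those of Snhg14 and Snhg20, without such a run, are not printed. Each line below holds 20 bases before and 30 bases from the annotated start, 5′ to 3′, and capitals mark the first run that opens with C and goes on for at least 4 further bases of C or T.
Gas5, chr1:161035146-161035195, plus strand: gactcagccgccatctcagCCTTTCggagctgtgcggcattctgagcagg
Snhg3, chr4:132353657-132353706, minus strand: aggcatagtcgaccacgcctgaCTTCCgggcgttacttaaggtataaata
Snhg8, chr3:123508307-123508356, minus strand: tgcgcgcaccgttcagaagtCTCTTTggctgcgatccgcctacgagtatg
Snhg12, chr4:132308658-132308707, plus strand: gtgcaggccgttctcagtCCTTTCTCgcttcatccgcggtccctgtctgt
Snhg17, chr2:158361480-158361529, minus strand: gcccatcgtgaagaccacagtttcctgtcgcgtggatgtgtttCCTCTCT
Snhg1, chr19:8723467-8723516, plus strand: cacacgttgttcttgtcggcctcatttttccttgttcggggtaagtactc
Snhg11, chr2:158375693-158375742, plus strand: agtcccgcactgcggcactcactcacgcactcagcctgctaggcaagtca
Such a run was present in 5 of the 9 windows, against 52.3% of all 32851 RefSeq windows of this length on the gene's own strand, so its presence was near the background. In 4 members, Gas5, Snhg3, Snhg8 and Snhg12, the run began within 5 bases of the annotated start, a position seen in 16.1% of all windows. The RefSeq starts of Gas5, Snhg8 and Snhg11 lie 99, 68 and 75 bases from those of their leading transcripts in the table, so 2 of the 4 runs near a start are not at the start of the measured leading transcript. The window of Snhg14 starts 1126028 bases from its leading transcript, so it says nothing of the transcripts measured here.

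By the sums of their named transcripts the members covered a wide range of levels, and their order was stable at the top. Assembled transcripts without a gene name are not in these sums. At the Snhg14 locus 225 of them summed to group means of 299.6 to 339.4 FPKM and were not assigned to a gene. Snhg11 was the highest with a mean of 91.6 FPKM over the 16 mice, 56.5% of the summed level of the 10 genes and 59.9-fold the mean of Snhg17, the lowest at 1.53 FPKM. It was above Gas5 in 16 of 16 mice. Gas5 followed at 25.7 FPKM, then Snhg14 at 16.6 FPKM and Snhg3 at 7.71 FPKM, and each of these was above the next in 15, 15 and 13 mice. Lower in the list, Snhg8 (5.12 FPKM) was above Snhg1 (4.70 FPKM) in 11 mice, Snhg1 above Snhg12 (3.57 FPKM) in 10 and Snhg12 above Snhg6 (3.33 FPKM) in 9, so these neighbors do not differ beyond their spread. Snhg20 was above Snhg17 in 13 mice.

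The spread over mice was smallest for the most abundant member. Snhg11, a transcript abundant in neurons, had 93.2, 97.0, 95.4 and 93.2 FPKM in HC mice 1 to 4, 88.0, 98.2, 83.4 and 83.8 in Ctrl, 92.0, 93.1, 90.8 and 100.6 in NLH mice and 86.6, 82.3, 88.2 and 99.5 in LH. Its highest mouse was 1.22-fold its lowest and all 4 groups overlapped. A further transcript assembled at this locus without a gene name, MSTRG.42216.2, was at 36.0 to 57.3 FPKM and is not in these sums. By the same measure Gas5 varied 2.08-fold, Snhg14 2.14-fold, Snhg3 2.48-fold and Snhg8 3.00-fold, while Snhg12, Snhg1, Snhg6, Snhg20 and Snhg17 varied 4.39-fold to 6.27-fold.

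**Figure D1:**
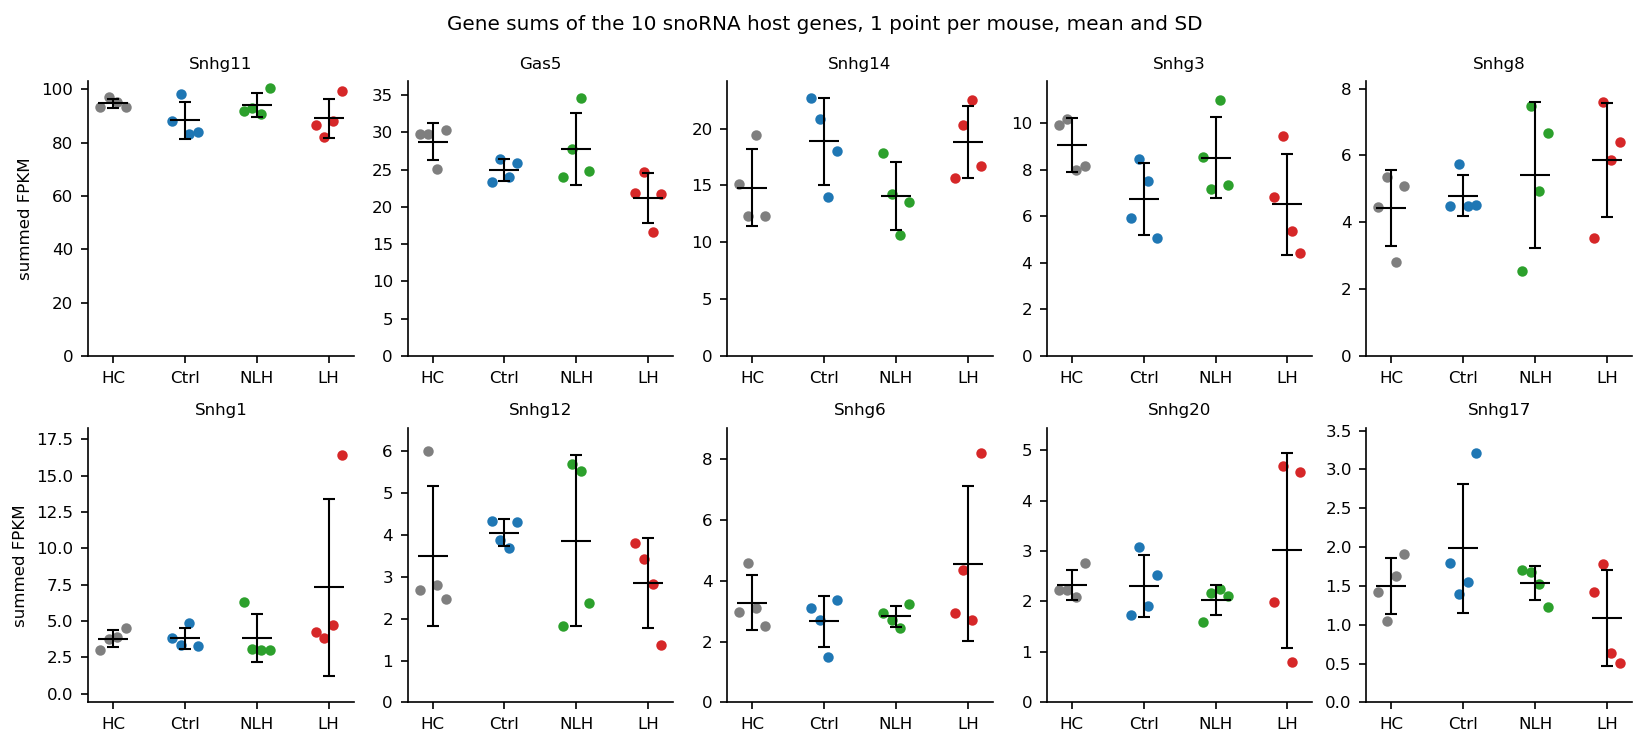
Summed FPKM of each host gene (vertical axis) in the 4 groups (horizontal axis), 1 point per mouse, with bars for the mean and SD (n = 4). Snhg11 stays between 82.3 and 100.6 FPKM, and LH mouse 4 lies far above the others in Snhg1 at 16.4 FPKM and in Snhg6 at 8.21 FPKM.

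The design gives 4 comparisons. Ctrl vs. HC sets handling, the shuttle box and the escape test together against mice left in their cages. NLH vs. Ctrl and LH vs. Ctrl set shocked mice, sorted by their behavior in the test, against mice with the test alone. Earlier shock and this sorting cannot be told apart there. LH vs. NLH sets helpless against non-helpless mice. None of the 10 genes differed at an adjusted p under 0.05 in limma (log2 of FPKM + 0.1, fitted over all 18287 genes and 16 mice) in any of them, where 0%, 0.00547%, 0% and 0.0109% of all genes did in the order just given. The moderated F-test over the 4 groups called 0 members against 0.0766% of all genes. No member had groups that did not overlap in any comparison, against 5.24%, 6.04%, 5.59% and 2.11% of all genes. At an unadjusted p under 0.05 the counts of members were 0, 1, 2 and 2, beside 2.7%, 5.59%, 11.5% and 7.54% of all genes, and the F-test gave 1 member beside 9.96%. The median log2 difference of the members was -0.02, 0.01, 0.01 and 0.04, with 5, 5, 6 and 5 of the 10 higher in the first group named, beside medians over all genes of 0.02, 0.06, 0.00 and -0.06.

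**Figure D2:**
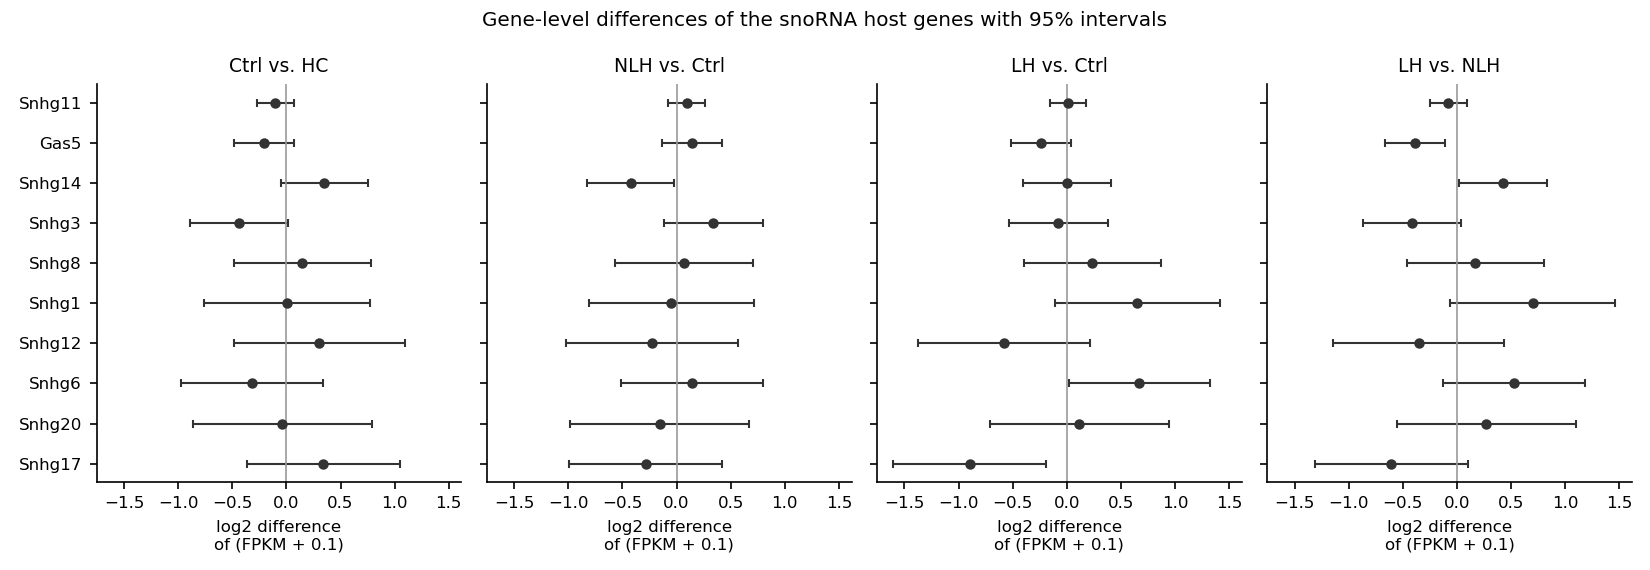
Log2 difference of (FPKM + 0.1) for each host gene in the 4 comparisons (first group minus second), with 95% intervals from the limma fit over all mice. Snhg11 has the narrowest intervals, and the intervals that leave out 0 are those of Snhg14 in NLH vs. Ctrl, Snhg17 and Snhg6 in LH vs. Ctrl, and Gas5 and Snhg14 in LH vs. NLH.

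Gas5 had the smallest unadjusted p of the 10 genes. Its level was 29.8, 29.7, 25.1 and 30.3 FPKM in HC mice 1 to 4, 23.3, 26.4, 24.0 and 25.9 in Ctrl, 24.0, 27.8, 34.7 and 24.8 in NLH mice and 21.9, 24.7, 16.7 and 21.7 in LH. The lowest value was that of LH mouse 3, and the LH and NLH mice overlapped only where LH mouse 2 passed NLH mouse 1. The group means were 28.7 ± 2.47, 24.9 ± 1.47, 27.8 ± 4.85 and 21.2 ± 3.37 FPKM (SD, n = 4). For LH vs. NLH the log2 difference was -0.39 (SE 0.13, 95% interval -0.66 to -0.11), with an unadjusted p of 0.00943 and an adjusted p of 0.518 in limma and a two-sided exact permutation p of 0.0571. The smallest p that this permutation of 4 against 4 mice allows is 0.0286. Without LH mouse 3 the difference was -0.27, without LH mouse 4 -0.40 and without both -0.24, so the unadjusted p in limma rose to 0.0871 when both were left out. For LH vs. Ctrl the difference was -0.24 (adjusted p = 0.506), which became -0.13 without LH mouse 3 and -0.10 without LH mice 3 and 4. It was -0.20 for Ctrl vs. HC (adjusted p = 1).

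Summed over its named transcripts, Snhg14 had a lower mean in NLH than in Ctrl and LH. Its level was 15.1, 12.3, 19.4 and 12.4 FPKM in HC, 22.7, 20.9, 13.95 and 17.99 in Ctrl, 17.9, 14.2, 10.6 and 13.5 in NLH mice and 15.7, 20.3, 22.5 and 16.7 in LH. Of the NLH mice 3 lay within the HC range, and 1 Ctrl mouse and 2 LH mice fell within the NLH range. The log2 difference was -0.42 for NLH vs. Ctrl (95% interval -0.83 to -0.02, limma unadjusted p = 0.0409) and 0.43 for LH vs. NLH (0.02 to 0.83, unadjusted p = 0.0398), comparisons that share the NLH mice. The smaller of the adjusted p was 0.638. Without LH mice 3 and 4 the LH vs. NLH difference was 0.37, with an unadjusted p of 0.133 in limma. LH vs. Ctrl differed by 0.00 (interval -0.40 to 0.41). At this locus 225 assembled transcripts without a gene name summed to 339.4 ± 9.22, 318.6 ± 11.7, 320.5 ± 25.5 and 299.6 ± 18.4 FPKM in HC, Ctrl, NLH and LH (SD, n = 4). Their mean was not lowest in NLH. The assembled locus also takes in Snrpn and Gm38393, and these transcripts were not assigned to a gene here. Of its neighbors, Snrpn, a paternally expressed gene, had means of 27.4, 33.3, 32.9 and 33.4 FPKM in HC, Ctrl, NLH and LH, and Ube3a, a ubiquitin ligase, had 23.1, 24.8, 23.1 and 31.1 FPKM.

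Snhg1 and Snhg6 had their highest group means in LH, and LH mouse 4 was the highest of the 16 mice in both. Snhg1 was at 3.03 to 4.49 FPKM in HC and 3.28 to 4.84 in Ctrl. In NLH it was at 6.31, 3.06, 3.01 and 3.04 FPKM, and in LH at 4.24, 3.86, 4.75 and 16.4. LH mouse 4 was thus more than 3-fold the next LH mouse, and the other LH mice lay within the range of Ctrl. For LH vs. Ctrl the log2 difference was 0.65 (SE 0.36, limma adjusted p = 0.521) with this mouse and 0.17 without it. Snhg6 was at 3.09, 2.72, 1.48 and 3.36 FPKM in Ctrl and at 2.94, 4.36, 2.70 and 8.21 in LH. Its log2 difference of 0.67 (SE 0.31, adjusted p = 0.417) became 0.34 without LH mouse 4, and the groups overlapped.

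Snhg17, host of snoRNAs on chromosome 2, had its lowest group mean in LH. It was at 1.79, 1.39, 1.55 and 3.21 FPKM in Ctrl, at 1.70, 1.68, 1.52 and 1.23 in NLH mice and at 1.42, 1.78, 0.638 and 0.511 in LH. LH mice 1 and 2 lay within the Ctrl range, and LH mice 3 and 4 were the lowest of all 16. The log2 difference for LH vs. Ctrl was -0.89 (SE 0.33, 95% interval -1.60 to -0.19, limma adjusted p = 0.314). It was -0.72 without LH mouse 3, -0.63 without LH mouse 4 and -0.23 without both.

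For Snhg20 the LH mice spread widest, at 1.99, 4.69, 0.80 and 4.57 FPKM against 1.73, 3.08, 1.91 and 2.52 in Ctrl. Its log2 difference for LH vs. Ctrl was 0.12, which became 0.62 without LH mouse 3 and -0.18 without LH mouse 4. Snhg12, which carries box H/ACA and box C/D snoRNAs, was at 3.70 to 4.35 FPKM in Ctrl and at 3.81, 3.43, 2.82 and 1.37 in LH. That difference of -0.58 (limma adjusted p = 0.597) became -0.27 without LH mouse 4. Snhg3, host of snoRNAs that take part in cutting the ribosomal RNA precursor, had means of 9.06 ± 1.15, 6.74 ± 1.53, 8.52 ± 1.75 and 6.52 ± 2.18 FPKM in HC, Ctrl, NLH and LH (SD, n = 4). Its difference for Ctrl vs. HC was -0.44 (95% interval -0.89 to 0.01, adjusted p = 1). Snhg8 had means between 4.43 FPKM in HC and 5.86 FPKM in LH, and Snhg11 between 88.3 FPKM in Ctrl and 94.7 FPKM in HC. The intervals of Snhg11 were the narrowest, from -0.16 to 0.18 for LH vs. Ctrl and from -0.25 to 0.09 for LH vs. NLH.

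The transcripts of each gene were next tested one at a time by the test of the study's methods, on FPKM with no adjustment. It called 2 of 79 tested member transcripts in Ctrl vs. HC, 3 of 77 in NLH vs. Ctrl, 5 of 78 in LH vs. Ctrl and 3 of 78 in LH vs. NLH, where 6.83%, 7.34%, 7.84% and 4.55% of all tested transcripts were called. The counts are near this background. The groups did not overlap for 2, 1, 3 and 1 member transcripts, beside 4.07%, 4.55%, 5.19% and 2.66% of all. In limma with adjustment over all transcripts the counts were 1, 0, 0 and 0, beside 0.00374%, 0.0125%, 0.0462% and 0.0412% of all. The calls fell on 10 transcripts, 5 of Gas5, 2 of Snhg1, 2 of Snhg12 and 1 of Snhg6, and their p-values adjusted over all tested transcripts were between 0.370 and 0.812. Of the 10 transcripts, 6 are annotated as retained introns and 6 hold a whole snoRNA in an exon, among 36 and 37 of the 81 (the latter counts the scaRNA of Snhg20). Fragments from a shared exon are divided between transcripts by estimation, so a transcript can gain where its neighbor loses.

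The Gas5 transcript ENSMUST00000065709.11, which ends within an intron of the leading transcript, was at 4.70, 6.43, 4.44 and 7.70 FPKM in HC, 3.05, 2.78, 2.44 and 3.40 in Ctrl, 2.97, 4.67, 4.89 and 3.48 in NLH mice and 0.878, 3.83, 0 and 1.55 in LH. Every HC mouse was above every Ctrl mouse, while LH and NLH overlapped. The difference was -2.90 FPKM for Ctrl vs. HC, with a two-sided exact permutation p of 0.0286, and it stayed called when each of the 8 mice was left out. In limma the log2 difference was -0.95 (SE 0.75, unadjusted p = 0.226, adjusted p = 1). For LH vs. NLH it was -2.44 FPKM, with an exact permutation p of 0.0857 and a limma adjusted p of 0.441, and the call was kept in 2 of 8 such repeats. It was -1.65 FPKM and not called without LH mice 3 and 4. The end of this transcript is shown because the capitals are the bases that the leading transcript does not have.
Gas5 ENSMUST00000065709.11, chr1:161036549-161036629, plus strand: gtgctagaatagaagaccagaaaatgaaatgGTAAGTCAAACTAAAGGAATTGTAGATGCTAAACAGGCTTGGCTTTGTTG

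A second Gas5 transcript, ENSMUST00000162289.7, keeps the intron that carries Snord80. It was at 1.66, 2.02, 1.61 and 1.67 FPKM in Ctrl and at 3.50, 2.51, 2.91 and 2.43 in NLH, so each NLH mouse was above each Ctrl mouse. The difference was 1.10 FPKM with an exact permutation p of 0.0286 and a limma adjusted p of 0.834, and it stayed called in 8 of 8 repeats that left out a mouse. HC and LH mice lay across both ranges, at 1.59 to 2.50 and 1.01 to 2.72 FPKM. Transcript ENSMUST00000162163.7, which holds Snord78, was at 1.52 to 1.79 FPKM in Ctrl and at 1.63, 0.941, 0.700 and 0 in LH. Its call in LH vs. Ctrl (-0.843 FPKM, exact permutation p = 0.0857, limma adjusted p = 0.401) was kept in 1 of 8 repeats, and without LH mice 3 and 4 the difference was -0.376 FPKM and not called. The snoRNAs inside these transcripts are shown with the first TGATG and the last CTGA in capitals, the letters found at the box C and box D of this class.
Snord80, chr1:161037601-161037681, plus strand: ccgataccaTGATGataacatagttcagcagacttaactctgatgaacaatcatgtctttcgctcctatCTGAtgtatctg
Snord78, chr1:161036984-161037049, plus strand: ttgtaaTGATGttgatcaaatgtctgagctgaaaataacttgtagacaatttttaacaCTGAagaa

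The one transcript past the limma threshold was Gas5 ENSMUST00000163081.1, of 370 bases. It was at 0.346, 1.55, 0.689 and 0.310 FPKM in HC mice 1 to 4 and was listed at 0 in the other 12 mice. Its highest value stood for an estimated 9.01 fragments, so the difference between HC and Ctrl (limma adjusted p = 0.0423) rests on few fragments in 4 mice. The call by the test of the methods was lost in 5 of 8 repeats that left out a mouse. Its last exon is shown, with the bases that are absent from the leading transcript in capitals.
Gas5 ENSMUST00000163081.1, chr1:161037995-161038125, plus strand: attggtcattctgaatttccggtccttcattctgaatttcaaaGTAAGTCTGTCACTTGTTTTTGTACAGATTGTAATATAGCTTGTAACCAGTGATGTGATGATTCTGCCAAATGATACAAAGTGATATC

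Of the 2 called Snhg1 transcripts, ENSMUST00000206155.1, a spliced RNA of 10 exons, is the leading one. It was at 1.27, 1.70, 1.45 and 1.49 FPKM in Ctrl, at 3.63, 1.60, 1.84 and 1.83 in NLH mice and at 2.57, 2.30, 1.76 and 3.13 in LH. Every LH mouse was above every Ctrl mouse, by 0.962 FPKM between the means (exact permutation p = 0.0286, limma adjusted p = 0.320), and the call was kept in 8 of 8 repeats and without LH mice 3 and 4 (0.958 FPKM). After scaling by median-ratio size factors it was not called. The excess of Snhg1 in LH mouse 4 lay elsewhere, in ENSMUST00000206113.1, a transcript of 312 bases at 11.3 FPKM there. In the other LH mice it was listed at 0, and in the remaining 12 mice it was at most 1.23 FPKM. Its 11.3 FPKM stood for an estimated 25.6 fragments. The last exon of this transcript is shown, with capitals for the 131 bases that run on into the intron of the leading transcript.
Snhg1 ENSMUST00000206113.1, chr19:8724672-8724852, plus strand: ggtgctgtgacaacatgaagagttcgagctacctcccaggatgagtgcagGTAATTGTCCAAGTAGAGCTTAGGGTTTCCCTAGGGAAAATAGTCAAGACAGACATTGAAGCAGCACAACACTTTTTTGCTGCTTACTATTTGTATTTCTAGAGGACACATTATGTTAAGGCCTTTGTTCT

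In Snhg6 the called transcript had its lowest mean in LH, where the gene sum had its highest. Transcript ENSMUST00000182819.7, named after its values were seen because its mean was under 1 FPKM, was at 0.894, 0.651, 0.831 and 0.569 FPKM in Ctrl, at 0.763, 0.378, 0.866 and 0.711 in NLH mice and at 0.427, 0.312, 0.203 and 0 in LH. Each LH mouse was below each Ctrl mouse, by 0.501 FPKM between the means (exact permutation p = 0.0286, limma adjusted p = 0.231). LH vs. NLH differed by -0.444 FPKM (exact permutation p = 0.0571, limma adjusted p = 0.405), and both calls were kept in 8 of 8 repeats. Without LH mice 3 and 4 the differences were -0.367 FPKM, still called, and -0.310 FPKM, not called. The leading transcript ENSMUST00000182580.7 was at 1.61, 2.91, 2.49 and 6.35 FPKM in LH and at 1.34, 1.5, 3.8e-05 and 1.25 in Ctrl. The printed stretch is the end of the first exon of ENSMUST00000182819.7, with capitals for the 60 bases that the leading transcript lacks.
Snhg6 ENSMUST00000182819.7, chr1:9942678-9942777, minus strand: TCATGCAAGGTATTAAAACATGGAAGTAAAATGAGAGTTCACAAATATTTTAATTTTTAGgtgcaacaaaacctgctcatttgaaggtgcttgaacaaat

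Snhg12 had its leading transcript ENSMUST00000137343.7 called in LH vs. Ctrl, at 2.61, 1.82, 0.689 and 1.75 FPKM in Ctrl and at 0.641, 0.763, 0 and 0 in LH. The groups overlapped, the difference was -1.37 FPKM (exact permutation p = 0.0571, limma adjusted p = 0.509), and the call was kept in 5 of 8 repeats but not without LH mice 3 and 4 (-1.02 FPKM). This transcript was under 0.01 FPKM in 5 of 16 mice, namely HC mouse 1, NLH mice 1 and 4 and LH mice 3 and 4. The other calls were Snhg12 ENSMUST00000153474.8 and Snhg1 ENSMUST00000205539.1 in NLH vs. Ctrl, the latter also in LH vs. NLH, and Gas5 ENSMUST00000159157.7 in LH vs. Ctrl. The choice of these 3 transcripts followed a look at their values, and their means over the 16 mice were 0.210, 0.161 and 0.225 FPKM. When single mice were left out, the Snhg12 and Gas5 calls were each kept in 1 of 8 repeats. The Snhg1 call was kept in 3 of 8 for NLH vs. Ctrl and in 6 of 8 for LH vs. NLH, where it was lost without NLH mouse 3 or NLH mouse 4. The call of the Gas5 transcript was lost without LH mice 3 and 4 (-0.374 FPKM) and that of the Snhg1 transcript in LH vs. NLH was kept (-0.178 FPKM).

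**Figure D3:**
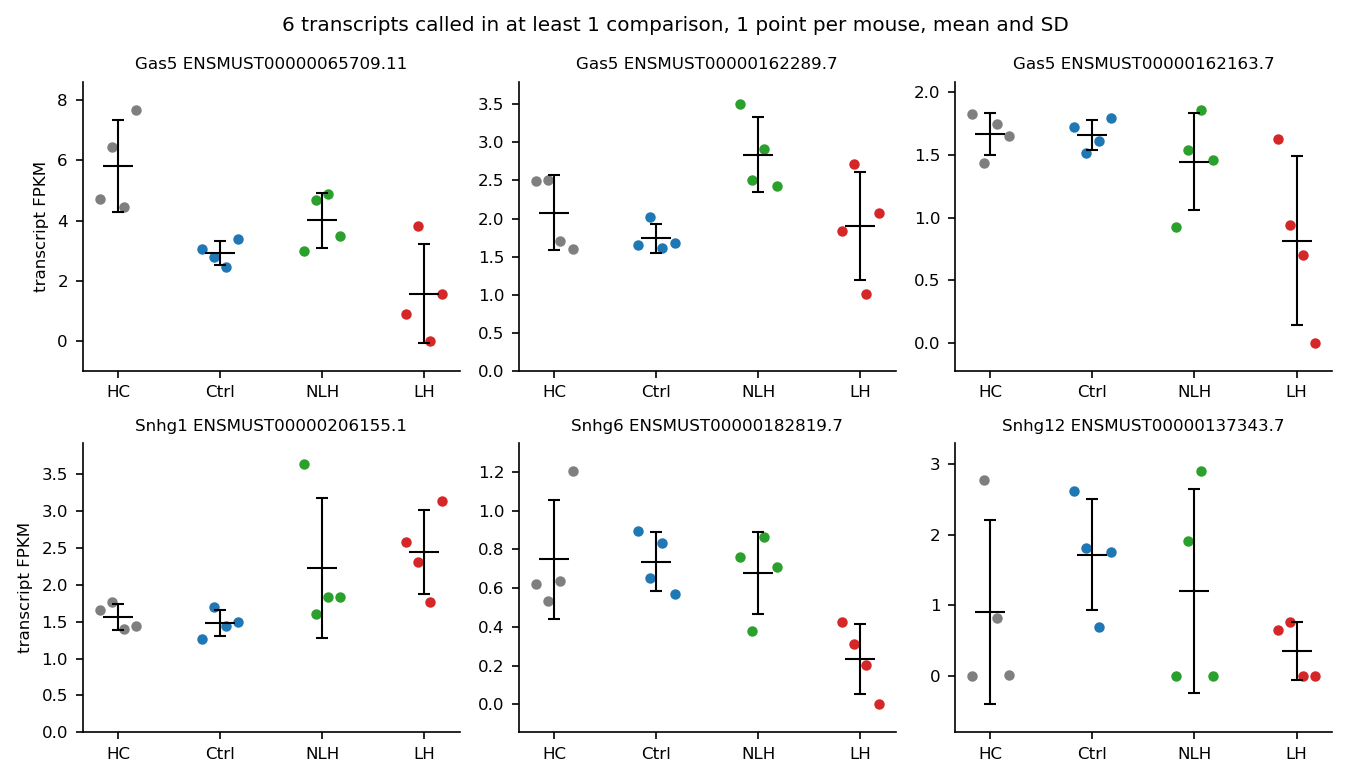
FPKM of 6 transcripts that were called in at least 1 comparison (vertical axis, its own scale in each panel) in the 4 groups, 1 point per mouse, with bars for the mean and SD (n = 4). Gas5 ENSMUST00000065709.11 separates HC from Ctrl, Snhg1 ENSMUST00000206155.1 and Snhg6 ENSMUST00000182819.7 separate LH from Ctrl in opposite directions, and several LH mice sit at or near 0.

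The genes differed in their make-up. A single transcript held 98.2% of Snhg8, 93.7% of Snhg3, 92.3% of Snhg20 and 90.8% of Snhg11. By contrast the leading transcript held 20.8% of Gas5, 29.2% of Snhg12, 41.0% of Snhg1, 42.8% of Snhg17, 45.6% of Snhg14 and 58.0% of Snhg6. Retained-intron transcripts together made up 68.5% ± 6.81 of Gas5 in HC, 67.0% ± 5.81 in Ctrl, 64.7% ± 5.90 in NLH mice and 65.3% ± 8.74 in LH (SD, n = 4), so this share differed by less than the spread between mice. In Snhg1 it was 51.6% ± 7.11, 54.0% ± 10.7, 40.2% ± 6.68 and 48.3% ± 22.9, with LH mouse 4 at 77.2%.

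**Figure D4:**
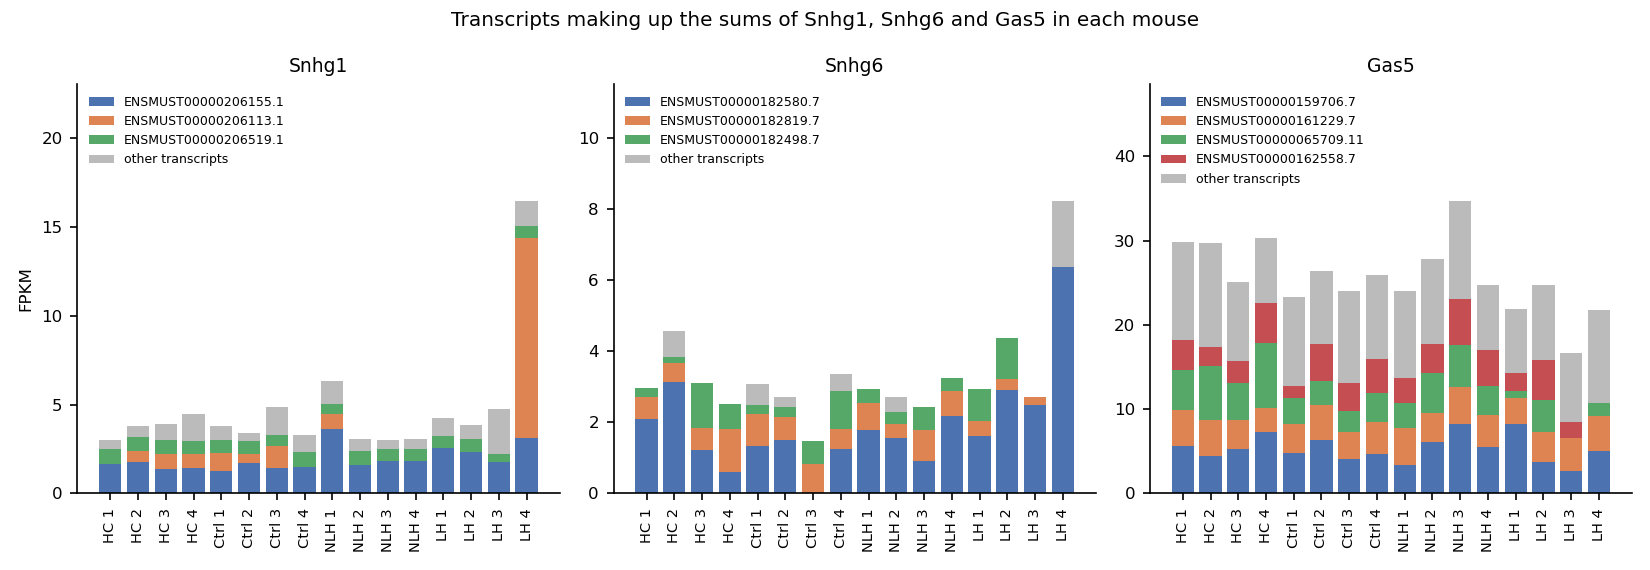
FPKM of the most abundant transcripts of Snhg1, Snhg6 and Gas5 stacked in each mouse, with the remaining transcripts in gray (each panel has its own vertical scale). The tall Snhg1 bar of LH mouse 4 is mostly ENSMUST00000206113.1 at 11.3 FPKM, and that of Snhg6 is mostly the leading transcript at 6.35 FPKM.

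The ratio of the leading transcript to the others was tested by limma over 8347 genes with 2 or more transcripts and a mean of at least 1 FPKM. No member passed the adjusted threshold in the 4 comparisons, where 0.012%, 0.024%, 0.0719% and 0.024% of these genes did. At an unadjusted p under 0.05 there were 0, 0, 3 and 1 members, beside 3.07%, 5.32%, 13.1% and 11.6% of the genes. For LH vs. Ctrl these were Snhg6 (log2 ratio difference 2.71, adjusted p = 0.264), Snhg17 (1.79, adjusted p = 0.346) and Snhg20 (-2.07, adjusted p = 0.241). For LH vs. NLH it was Snhg20 (-1.64, adjusted p = 0.398). The value of Snhg17 rests on LH mice 3 and 4, where the leading transcript at 0.638 and 0.511 FPKM made up nearly all of the gene, and it was 0.09 without them (limma unadjusted p = 0.868). The value of Snhg6 became 1.81 without these mice (limma unadjusted p = 0.113) and that of Snhg20 for LH vs. NLH -1.01 (unadjusted p = 0.144), so neither stayed under 0.05. Snhg20 for LH vs. Ctrl became -1.44 (limma unadjusted p = 0.0454). Other values came under 0.05 without these mice, as Snhg1 for LH vs. Ctrl went from 0.17 to 1.15 (limma unadjusted p = 0.746 and 0.0130) and Snhg14 for LH vs. NLH from -0.63 to -1.03 (unadjusted p = 0.107 and 0.0213). None of these passed the adjusted threshold. The leading transcript of Snhg20 held 99.9% ± 0.164 of the gene in Ctrl and 84.5% ± 19.7 in LH, a gap smaller than the SD among LH mice.

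Over the 16 mice the 10 genes did not move together as a set. The median Pearson's r of log2(FPKM + 0.1) over their 45 pairs was 0.096, with 24 pairs positive, against a median of 0.269 over all pairs of the 10436 genes with a mean of at least 1 FPKM. An r of at least 0.5 was reached by 6.67% of the member pairs and 25.2% of all pairs, and an r of at most -0.5 by 8.89% and 1.94%. Of the 45 relations, 6 had an unadjusted permutation p under 0.05. Adjusted over the 45 pairs, the permutation p was 0.038 for Gas5 with Snhg3, Gas5 with Snhg14 and Snhg1 with Snhg12, and above 0.05 for the others. The mice share 4 groups and each library scales all its genes, so pairs are not independent.

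The highest r was between Gas5 and Snhg3, at 0.70 (Spearman's rho 0.66, permutation p = 0.00216 and 0.00651). It was 0.60 without the mice farthest from the Gas5 median (NLH mouse 3 and LH mouse 3), 0.53 with the group means removed and 0.59 after median-ratio size factors. Next were Snhg1 with Snhg6, at an r of 0.55 but a rho of -0.01 (permutation p = 0.0662 and 0.979), and Snhg6 with Snhg20 at 0.53 (rho 0.33, permutation p = 0.0412 and 0.207). The former turned to -0.30 without NLH mouse 1 and LH mouse 4, and so rests on those mice, and it was -0.21 without LH mice 3 and 4. The latter fell to 0.36 without Ctrl mouse 3 and LH mouse 4.

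At the other end were Snhg1 with Snhg12 at -0.70 (rho -0.49, permutation p = 0.00173 and 0.0555) and Gas5 with Snhg14 at -0.69 (rho -0.60, permutation p = 0.00255 and 0.0166). Without the 2 farthest mice these were -0.26 and -0.47, so the first rests on NLH mouse 1 and LH mouse 4. After size factors they were -0.62 and -0.41, and without LH mice 3 and 4 they were -0.48 and -0.66. Snhg1 with Snhg17 had an r of -0.60 and a rho of -0.04 (permutation p = 0.0301 and 0.873), an r of -0.27 without the same mice, and an r of 0.06 without LH mice 3 and 4, where the sign turned. The neighbors Snhg11 and Snhg17 had an r of -0.46, and Snhg3 and Snhg12, 36989 bases apart on chromosome 4, had 0.35.

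**Figure D5:**
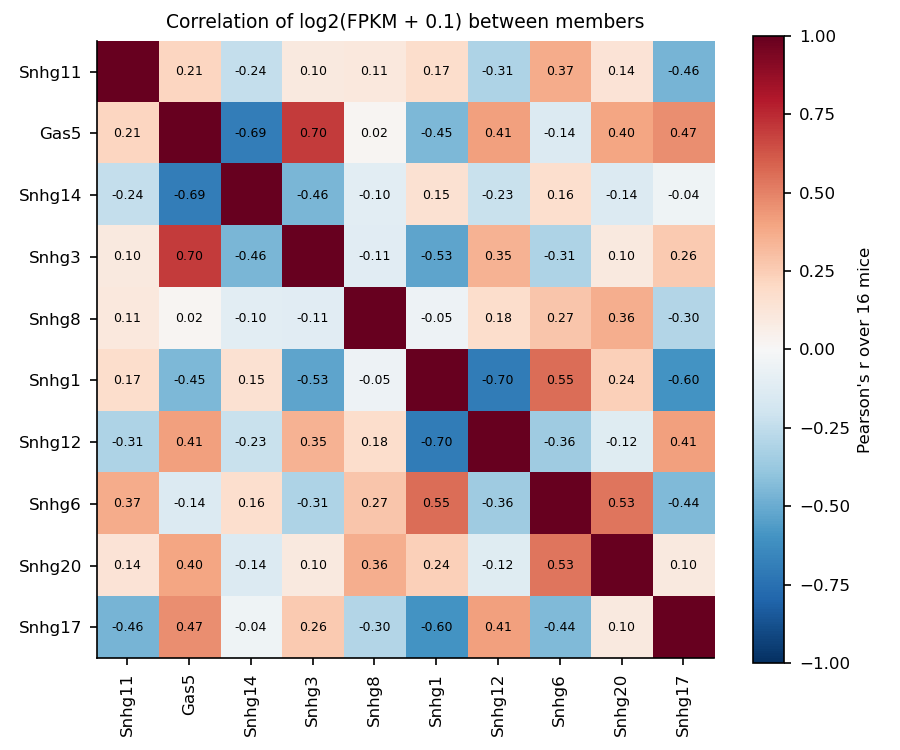
Pearson's r over 16 mice between the log2(FPKM + 0.1) of each pair of host genes, from -1 (blue) to 1 (red), with the value in each cell and the genes in order of mean level on both axes. Gas5 with Snhg3 (0.70) and Snhg1 with Snhg12 (-0.70) are the extremes, and most cells are pale.

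For each member, the genes with the highest r among 10435 others were listed as the closest in pattern. Snhg11 was nearest to Meg3, an imprinted noncoding RNA abundant in neurons, at an r of 0.81 (rho 0.82, and 0.86 without LH mice 3 and 4), followed by Leng8 (0.74) and Tmem191c (0.72). Gas5 was nearest to Gm26778 (0.88), Usmg5, a small subunit of the mitochondrial ATP synthase (0.86), and B130055M24Rik (0.86). Snhg3 was nearest to Dus3l (0.83), Trpc1 (0.82) and also B130055M24Rik (0.82). These r were, without LH mice 3 and 4, 0.77, 0.78 and 0.75 for Gas5 and 0.71, 0.69 and 0.69 for Snhg3. For Snhg12 these were Eepd1 (0.87), Rbl2 (0.86) and Dzip1l (0.83), for Snhg8 Clk2 (0.83), Asphd1 (0.81) and Klf12 (0.81), and for Snhg14 Gm13872 (0.79), Zfp943 (0.72) and Rnf138 (0.70). These values changed little for Snhg12, Snhg8 and Snhg14 when LH mice 3 and 4 were left out, with a lowest r of 0.63.

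The nearest genes of Snhg1 rested on LH mice 3 and 4. They were Usp1 (0.88), 2210418O10Rik (0.88) and Vps36 (0.87), and these r were 0.51, 0.15 and 0.25 without these mice. Snhg6 was nearest to Acy1 (0.82), Trafd1 (0.78) and Ccdc137 (0.77), with 0.59, 0.63 and 0.43 without them. Snhg17 was nearest to Rgma (0.88), Phf12 (0.88) and Aamp (0.86), and Snhg20 to Zfp362 (0.89), Numbl (0.89) and Slc38a6 (0.87). Leaving out LH mice 3 and 4, the former r were 0.60, 0.70 and 0.53 and the latter 0.76, 0.82 and 0.69. For Snhg17 and Snhg20, 45 and 38 genes reached an r of 0.8, against 0 to 13 for the other members, all counted with LH mice 3 and 4.

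Other genes of the snoRNA system were read from the same fit. None of the 24 ribosomal protein and related hosts, 24 other protein-coding hosts, 18 snoRNP proteins and assembly factors, 17 nonsense-mediated decay factors, 10 other noncoding hosts and 3 neighbors of Snhg14 in the table passed the adjusted threshold in any of the 4 comparisons. The ribosomal hosts had positive log2 differences in 21 of 24 genes for NLH vs. Ctrl (median 0.21) and negative ones in 22 of 24 for LH vs. NLH (median -0.16), comparisons that share the NLH mice. Their medians for Ctrl vs. HC and LH vs. Ctrl were -0.04 and 0.03. Over all genes the median was 0.06 for NLH vs. Ctrl and -0.06 for LH vs. NLH. The other protein-coding hosts had medians of 0.01, 0.14, 0.12 and -0.06 in Ctrl vs. HC, NLH vs. Ctrl, LH vs. Ctrl and LH vs. NLH. The snoRNP proteins had 0.07, 0.10, 0.08 and -0.09, the decay factors 0.06, 0.12, -0.05 and -0.15, the other noncoding hosts -0.18, 0.06, 0.03 and 0.05, and the neighbors of Snhg14 0.26, -0.02, 0.00 and 0.02.

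Of the 93 distinct genes of these lists, 1 passed the F-test over the 4 groups at an adjusted p under 0.05 in limma, beside 0.0766% of all genes. At an unadjusted p under 0.05 there were 21, beside 9.96% of all genes. Tpt1, a translationally controlled growth protein whose gene hosts a snoRNA, was at 91.2 ± 6.81, 91.6 ± 3.91, 138.5 ± 14.2 and 127.8 ± 17.6 FPKM in HC, Ctrl, NLH and LH (SD, n = 4, limma F-test adjusted p = 0.0370). Upf2, a core factor of nonsense-mediated decay, was at 4.33, 5.24, 6.15 and 7.04 FPKM (adjusted p = 0.0708). Of the hosts, Rps24 was at 85.5, 81.5, 120.1 and 99.5 FPKM (adjusted p = 0.199), Rpl23a at 15.8, 14.7, 25.9 and 20.7 (0.174) and Eif3a, a translation initiation factor, at 7.34, 7.20, 9.55 and 9.80 (0.151). The remaining genes with the smallest F-test p of their lists were Naf1 (adjusted p = 0.305) and Tgs1 (0.332) of snoRNP assembly, Ncbp2 (0.378) of the cap-binding complex, Epb41l4aos (0.355), Dancr (0.604), Snrpn (0.402) and Ube3a (0.407).

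Markers of other cells were read beside the members. No marker of striatum, choroid plexus, oligodendrocytes, red blood cells, microglia, astrocytes or endothelium passed the adjusted threshold in any comparison. The summed levels over the 16 mice ran from 7.53 to 18.3 FPKM for striatum (6 of 6 genes in the table), 242.3 to 443.4 for oligodendrocytes (3 of 4), 143.7 to 458.8 for red blood cells (4 of 5), 17.0 to 27.2 for microglia (3 of 3), 39.5 to 67.7 for astrocytes (3 of 3) and 2.63 to 11.8 for endothelium (2 of 3). Both ends of these ranges came from LH mice, except the lower end for endothelium, which came from an HC mouse. In choroid plexus the range was 2.46 to 36.1 FPKM in HC, 14.7 to 48.4 in Ctrl, 3.14 to 60.6 in NLH mice and 1.59 to 84.1 in LH. The part of these tissues in the values of the members was not tested.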

How the data were processed

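Total RNA libraries of 16 mice (4 groups of 4) were read as pairs of 150 bases by the authors. They aligned reads to mm10 (HISAT2 in the methods, STAR 2.42a in the submitters' processing notes), assembled transcripts with StringTie 1.2.3 and deposited FPKM per transcript from Cufflinks. FPKM is a length- and depth-scaled value, not a count, so limma was run on log2(FPKM + 0.1), with gene sums of named transcripts, trend and robust variance, 1 mean per group and Benjamini-Hochberg adjustment over all features. Transcripts were also tested on FPKM by Student's test with equal variances, two-sided and unadjusted, as in the study's methods. Values under 1e-06 were set to 0 for tests of transcripts. In simulated data limma recovered 92% (LH vs. Ctrl) and 93.5% (LH vs. NLH) of 200 genes changed 4-fold among 18287. Smaller changes, such as those of the members, were not simulated, so the power to call them is not known. Members and lists were chosen with earlier results of these data known. Named were all 10 members, their leading transcripts, transcripts called at a mean of at least 1 FPKM or past the limma threshold, the 3 genes closest in pattern to each member, and the 2 genes per list with the smallest F-test p. The remaining called transcripts, with means under 1 FPKM, and Snhg1 ENSMUST00000206113.1 were named after their values were seen. Correlations used 100000 permutations. Gene models came from GENCODE vM21 and start windows from RefSeq. Alternatives were pseudocounts, filters, size factors, unequal variances, a replicate block, left-out mice and, chosen after seeing the data, added unnamed transcripts and the fit without LH mice 3 and 4. Replicates are separate mice. Software was R 4.3.3, limma 3.58.1, Python 3.11.15, numpy 2.4.6, pandas 2.3.3, scipy 1.17.1 and matplotlib 3.10.9.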

Additional observations from a re-analysis of the deposited data

Results flagged for a closer look

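In 5 of 40 groups of 4 mice, 1 mouse lay far from the other 3 in the summed level of a host gene, by the gap to the nearest mouse over the whole range of the group. For normally spread values chance gives about 5% of groups, and the share over all genes was not computed. Snhg1 was at 16.4 FPKM in LH mouse 4 against 3.86 to 4.75 in the other LH mice, and at 6.31 FPKM in NLH mouse 1 against 3.01 to 3.06 in the other NLH mice. Gas5 was at 25.1 FPKM in HC mouse 3 against 29.7 to 30.3 in the other HC mice. Snhg12 was at 6.00 FPKM in HC mouse 2 against 2.48 to 2.82, and Snhg8 was at 5.74 FPKM in Ctrl mouse 2 against 4.47 to 4.52. The cause of these values was not tested.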

How the results depend on the processing

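The counts of host genes past the adjusted threshold stayed at 0 in all 128 values for gene sums and all 84 values for leading-transcript ratios, over the alternatives run, and the lowest adjusted p of a gene sum was 0.117 (Snhg17, LH vs. Ctrl, without LH mouse 2). Counts of called transcripts depended on the setting. With unequal variances they were 1 in Ctrl vs. HC and 3 in LH vs. Ctrl, and at a mean of at least 1 FPKM 1 (Ctrl vs. HC), 1 (NLH vs. Ctrl), 3 (LH vs. Ctrl) and 1 (LH vs. NLH). With adjusted p they were 0 in all 4. The replicate block gave 1 for Ctrl vs. HC, 3 for LH vs. Ctrl and, for LH vs. NLH, 1, but same-numbered mice share only a number (median r of their deviations -0.02 over 24 pairs, with 3 over 0.1). Without LH mice 3 and 4 the count for LH vs. NLH was 6. Leaving out 1 mouse gave 1 to 4, 1 to 4, 2 to 6 and 1 to 8 calls in the same order of comparisons. After size factors 4 log2 differences near 0 changed sign, to -0.025 (Snhg1, Ctrl vs. HC), -0.011 (Snhg8, NLH vs. Ctrl), -0.0295 and -0.039 (Snhg11 and Snhg14, LH vs. Ctrl). Without LH mice 3 and 4 the sign changed to 0.28, -0.063 and -0.057 for Snhg3, Snhg11 and Snhg14 (LH vs. Ctrl) and to 0.069 and 0.0596 for Snhg12 and Snhg17 (LH vs. NLH). Leaving out 1 mouse gave, for Ctrl vs. HC, -0.11 to 0.089 in Snhg1, -0.18 to 0.083 in Snhg20 and -0.052 to 0.25 in Snhg8. For NLH vs. Ctrl it gave -0.31 to 0.066 in Snhg1, -0.47 to 0.063 in Snhg12, -0.11 to 0.27 in Snhg6 and -0.12 to 0.39 in Snhg8. For LH vs. Ctrl it gave -0.042 to 0.064 in Snhg11, -0.13 to 0.10 in Snhg14, -0.19 to 0.62 in Snhg20 and -0.27 to 0.086 in Snhg3, and for LH vs. NLH -0.031 to 0.77 in Snhg20 and -0.15 to 0.39 in Snhg8. The median r over pairs of host genes was 0.106 with group means removed, 0.0545 after size factors and 0.0517 without LH mice 3 and 4, where Snhg1 with Snhg6 had -0.21 and Snhg1 with Snhg17 0.061. The cause of these changes was not tested. By the estimate of depth, the FPKM of short and rare transcripts stand for few fragments.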
